A study of Homo sapiens with 18 samples.

Results

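The question was which nuclear-encoded mRNAs changed their share in heavy polysomes, after GC7, by more or less than their amount in the cytoplasm changed. DU145 cells, an established human prostate carcinoma line, received GC7 (N1-guanyl-1,7-diaminoheptane, named by the labels as 40 µM for 24 h) or vehicle only. Cytoplasmic RNA and RNA from the heavy ribosome-bound part of sucrose gradients were sequenced, with 3 libraries in each of 4 groups (Cyto Ctl, Cyto GC7, Poly Ctl and Poly GC7), 12 of the 18 samples of the study. All groups share the line, the emetine added before harvest and the removal of nuclei and mitochondria by centrifugation, and the study holds 1 line, 1 dose and 1 time. The labels do not say whether replicates were separate cultures, so p-values measure only the spread between these libraries. Of 15747 genes listed, 4198 were under a mean normalised count of 100 in at least 1 fraction and 15 had names of mitochondrially encoded genes. The 11534 that remained are the subject here, and 11533 could be tested, since the SE of H2AC18 could not be recovered well from the deposited values.

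GC7 inhibits deoxyhypusine synthase (DHPS), the enzyme that starts the conversion of a lysine of the translation factor eIF5A into hypusine. Deoxyhypusine hydroxylase (DOHH) completes the conversion. Hypusinated eIF5A binds ribosomes that have paused, as at runs of proline, and helps peptide bonds form there, and it also acts in termination. An mRNA with many ribosomes travels to the heavy end of a sucrose gradient, either because it is initiated often or because its ribosomes move slowly, and polysome profiling cannot tell these apart.

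For each gene, the value described is the polysomal log2 fold change (GC7 against vehicle) minus the cytoplasmic one. A positive difference, called higher below, means that polysomal RNA went up more, or down less, than cytoplasmic RNA. The files used here give 1 fold change, SE and p-value per gene and fraction, so values of single libraries cannot be shown. Neither deposited table states which group is the numerator. Every direction rests on reading the category UP in the authors' deposited table as higher with GC7. The sign of the whole-cell fold changes was turned, since as deposited they ran against both fractions. Fold changes are scaled within each fraction, so a change in ribosome loading that all mRNAs shared would not be seen.

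The cells carried the keratins of a simple epithelium at high values of the authors' mean normalised count, with KRT8 at 32028 in cytoplasm and 18621 in polysomes and KRT18 at 41006 and 26823. Of the markers of blood, endothelial cells and fibroblasts, COL1A2 alone is listed, at 26.1 and 14.7. Mitochondrially encoded genes, left out here, took 11.9% of all cytoplasmic counts and 0.685% of polysomal ones.

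No nuclear gene differed between the fractions in its response to GC7 after Benjamini-Hochberg adjustment over the 11533 genes: 0 passed, 0% of those tested, and the smallest adjusted p was 0.999 by a two-sided normal test of each difference. That test takes the errors of the 2 fractions as independent. With errors assumed to be correlated at 0.5, 7 genes passed (AC087190.3, GEN1, SLC2A4RG, PCBP4 and ECE1 higher, EIF1B and APIP lower). At an assumed correlation of 0.3 none passed, and the smallest adjusted p of that normal test was 0.448. With errors taken as independent, 257 genes had an unadjusted p under 0.05. They were 2.23% of those tested, where uniform p-values would give 577, or 5%. Of these 257, 135 were higher in polysomes (1.17% of all tested) and 122 lower (1.06%). Each fraction by itself did change. By the adjusted p-values in the authors' deposited table, 552 genes (4.79%) changed in cytoplasm and 1461 (12.7%) in polysomes.

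The responses of the 2 fractions followed each other across genes, with a Pearson r of 0.674 and a Spearman rho of 0.607. Genes are not independent replicates, and this is a description. The median difference was 0.01, the middle 50% of genes lay between -0.18 and 0.20, and 5962 genes (51.7%) were above 0. The 5th percentile lay at -0.47 and the 95th at 0.51.

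**Figure D1:**
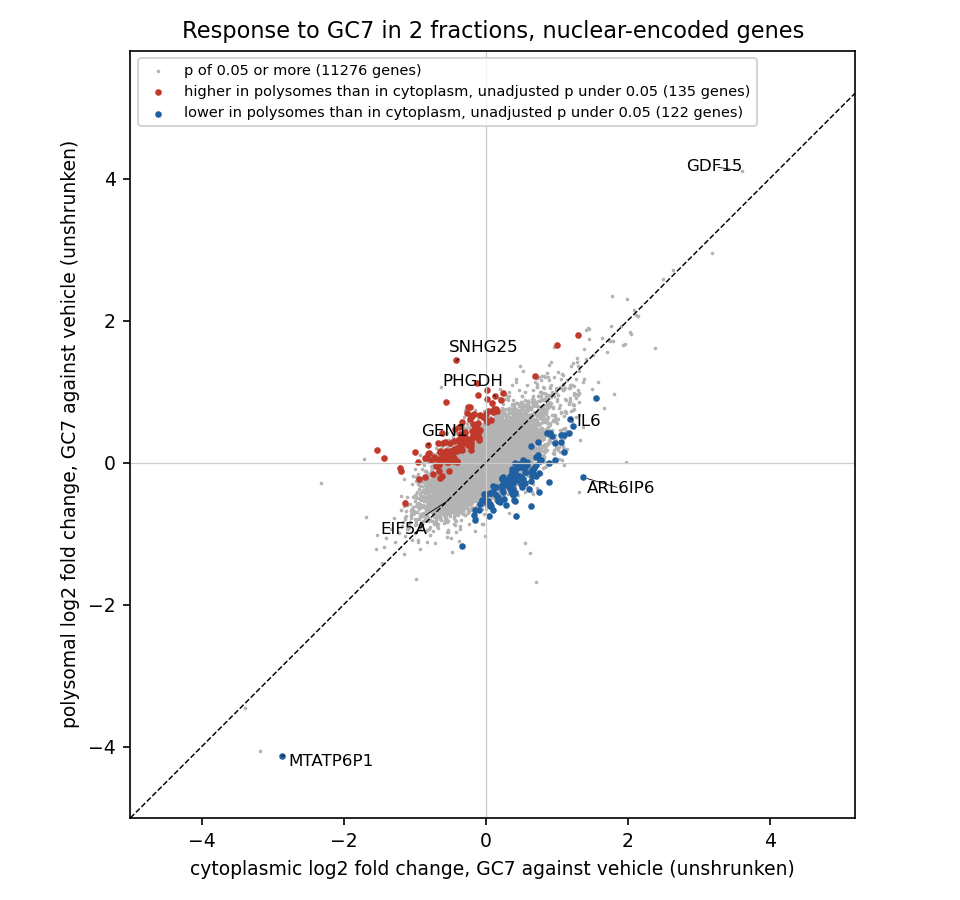
Each point is 1 of 11533 nuclear-encoded genes, with its cytoplasmic log2 fold change (GC7 against vehicle) on the x axis and its polysomal one on the y axis, and the dashed line marks equal response. Points follow the line; the 135 red and 122 blue genes have an unadjusted p under 0.05 for the difference, and none passed adjustment.

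The precision sets what these data could show. The median SE of the difference was 0.31, made up of a median SE of 0.25 in cytoplasm and 0.17 in polysomes, and the cytoplasmic SE was the larger one in 87.9% of genes. A single gene standing alone would have needed a difference of 1.42 at the median SE to pass adjustment, and still 1.18 at the lower quartile of SEs. The 95% interval of the difference lay within 2-fold in either direction for 8348 genes (72.4%) and within 1.5-fold for 1742 (15.1%). Shifts over 2-fold thus lay outside the single-gene interval for most genes, while smaller shifts were not resolved. Among the 40 genes whose difference exceeded 1 in size, the median SE was 0.63. Differences divided by their SE had a robust SD of 0.922, under the 1 that independent errors of the stated size would give.

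**Figure D2:**
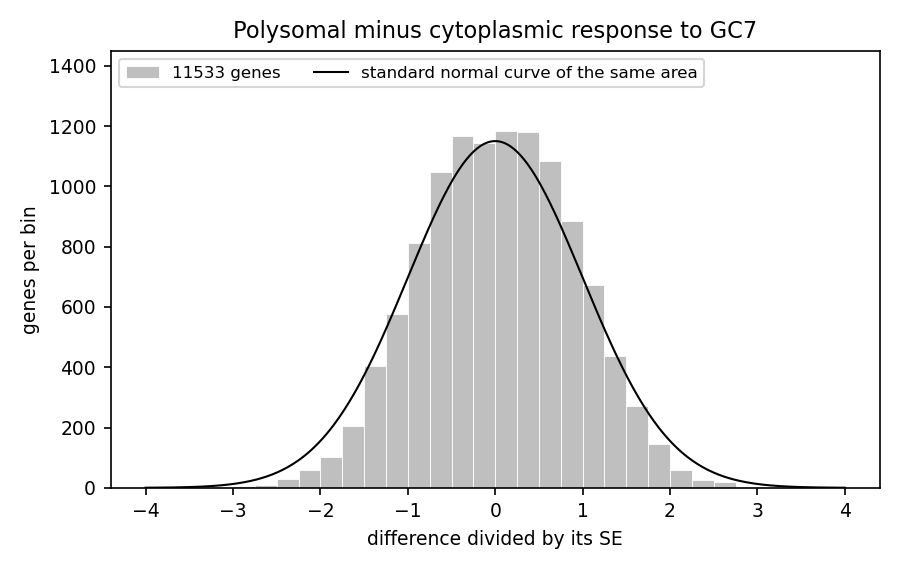
Number of genes (y axis) by the difference divided by its SE (x axis, bins of equal width) for 11533 genes, with the standard normal curve of the same area as a line. The bars lie under the curve in both tails, which goes with 257 genes at an unadjusted p under 0.05 where 577 would come from uniform p-values.

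Genes called in 1 fraction alone were not thereby shown to shift. Of the 1461 genes called in polysomes, 1070 were not called in cytoplasm, yet 989 of these 1070 had moved the same way there. Among the 9911 genes called in neither fraction, 6692 had the same direction in both. The genes called in polysomes alone are described further. Turned to the direction of the polysomal change, these 1070 genes had a median change of 0.57 in polysomes and 0.41 in cytoplasm, and a median difference of 0.19. For 57 of them (5.33%) the difference had an unadjusted p under 0.05, beside 2.23% of all genes. The 161 genes called in cytoplasm alone had medians of 0.65 in cytoplasm and 0.34 in polysomes in the direction of the cytoplasmic change, and 26 (16.1%) had an unadjusted p under 0.05. Being called in 1 fraction alone and the size of the difference come from the same contrasts, so nothing is read from these shares. The 391 genes called in both fractions moved the same way in all cases, by medians of 0.82 in cytoplasm and 0.75 in polysomes, and 10 of them (2.56%) had an unadjusted p under 0.05. No gene was called in opposite directions.

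The authors' deposited table also sorts genes into categories. Of its 88 genes marked as up in polysomes only, 32 met the count minimum, and these had a median rise of 1.21 in polysomes beside 0.85 in cytoplasm. The difference had an unadjusted p under 0.05 in 3 of the 32, beside 2.23% of all genes tested. Of 42 genes marked as up in cytoplasm only, 25 met the minimum, with medians of 1.24 in cytoplasm and 0.92 in polysomes, and 5 had an unadjusted p under 0.05. So did 2 of 8 genes marked as down in cytoplasm only and 1 of 9 marked as down in polysomes only. Among genes marked in both fractions, 1 of 39 up and 1 of 7 down had such a p. Those categories used the same contrasts, so these values describe the categories and test nothing.

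The enzymes and the substrate of hypusination came first. EIF5A mRNA fell alike in both fractions, by 0.48 on the log2 scale in cytoplasm and by 0.50 in polysomes, with adjusted p-values of 0.0486 and 0.0041 in the authors' deposited table. Its difference was -0.02 ± 0.21 (SE), with a 95% interval of -0.43 to 0.38, so no shift of its polysomal share was resolved. In whole cells EIF5A stood at 0.45, opposite to both fractions, and at the same distance below 0 with the sign as deposited. DHPS, the target of GC7, stood at -0.55 in cytoplasm and -0.01 in polysomes, a difference of 0.54 ± 0.41 with an unadjusted p of 0.185, or 0.14 with fold changes as deposited. DOHH stood at -0.79 and -0.37, a difference of 0.42 ± 0.34. Neither fraction called DHPS or DOHH. EIF5A2, the second eIF5A gene, averaged 90.1 counts in cytoplasm and so was not tested. The authors' deposited table gives it shrunken changes of -0.10 in cytoplasm (adjusted p 0.611) and -0.66 in polysomes (adjusted p 0.0249).

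The genes of polyamine metabolism, which supplies the spermidine from which hypusine is made, had 9 members above 0 and 9 below among 18 tested, with a median difference of -0.06. The smallest p belonged to ODC1, ornithine decarboxylase, the first enzyme of polyamine synthesis. It stood at 1.02 in cytoplasm and 0.20 in polysomes, a difference of -0.82 ± 0.55 (unadjusted p 0.136). With fold changes as deposited, which are shrunken most where the SE is large, the difference of ODC1 was -0.03.

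The 20 genes with the smallest p in each direction are described next. None passed adjustment, each has an adjusted p of 0.999, and they were singled out after their values were seen. The largest of the higher differences came from a small nucleolar RNA host gene. SNHG25 stood at -0.41 in cytoplasm and 1.44 in polysomes, a difference of 1.85 ± 0.63 (unadjusted p 0.00307), or 3.62-fold. The smallest p belonged to AC087190.3, a gene known by its clone name, at -0.12 and 1.13 with a difference of 1.25 ± 0.36 (unadjusted p 0.000557).

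Single genes on the higher side had various roles. PHGDH, which takes the first step of serine synthesis, stood at 0.14 in cytoplasm and 0.94 in polysomes, a difference of 0.80 ± 0.28 (unadjusted p 0.00381). SERPINH1, the collagen chaperone HSP47, stood at 0.24 and 0.98, a difference of 0.73 ± 0.28. ECE1, the protease that activates endothelin, stood at -0.22 and 0.62, a difference of 0.85 ± 0.28. Polysomal RNA was called as changed for all 3 in the authors' deposited table, and cytoplasmic RNA for none of them. BCAM, a laminin-binding surface protein, differed by 0.59 ± 0.22, and ARSA, the lysosomal arylsulfatase A, by 1.00 ± 0.39.

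Next came genes of other kinds. GEN1, a nuclease that cuts Holliday junctions, stood at -0.81 in cytoplasm, called by the authors' deposited table, and at 0.25 in polysomes, a difference of 1.06 ± 0.32 (unadjusted p 0.000892). PCBP4, a poly(C)-binding protein, stood at -0.39 and 0.32, a difference of 0.72 ± 0.23. SLC2A4RG, a transcription factor that regulates the GLUT4 gene, stood at -0.32 and 0.29, a difference of 0.61 ± 0.19. The alpha-tubulin TUBA1C stood at -0.62 and 0.07, a difference of 0.69 ± 0.26, and EEF1A2, an elongation factor, stood at 0.04 and 0.72, a difference of 0.68 ± 0.25. Both have close relatives, and how far counting split reads between them was not tested, so their values are uncertain.

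On the lower side, many of the leading genes encode small proteins. EIF1B, a relative of the start-codon selection factor eIF1, stood at 0.65 in cytoplasm, where the authors' deposited table called it, and at -0.14 in polysomes. Its difference was -0.79 ± 0.26 (unadjusted p 0.00204). EIF1 itself stood at 0.52 and 0.04, a difference of -0.48 ± 0.23 (unadjusted p 0.0351). ARL6IP6 had the most negative difference of these 20, -1.58 ± 0.52, with 1.37 in cytoplasm and -0.21 in polysomes. APIP, an enzyme of methionine salvage, stood at 0.50 and -0.21, a difference of -0.70 ± 0.23.

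Subunits of larger complexes were also among these 20. PSMA2, a proteasome core subunit, differed by -0.66 ± 0.23, the mitochondrial ribosomal proteins MRPL13 and MRPL33 by -0.66 ± 0.23 and -0.83 ± 0.29, and LSM6, which binds U6 RNA, by -0.67 ± 0.25. CISD1, an iron-sulfur protein of the outer mitochondrial membrane, stood at 0.64 in cytoplasm and -0.26 in polysomes, a difference of -0.90 ± 0.31. SUMO2, a ubiquitin-like modifier, differed by -0.72 ± 0.27, and DUT, which removes dUTP from the nucleotide pool, by -0.68 ± 0.25. SLX1A-SULT1A3 is a readthrough of neighbouring genes, and its -1.24 ± 0.46 is uncertain for that reason.

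**Figure D3:**
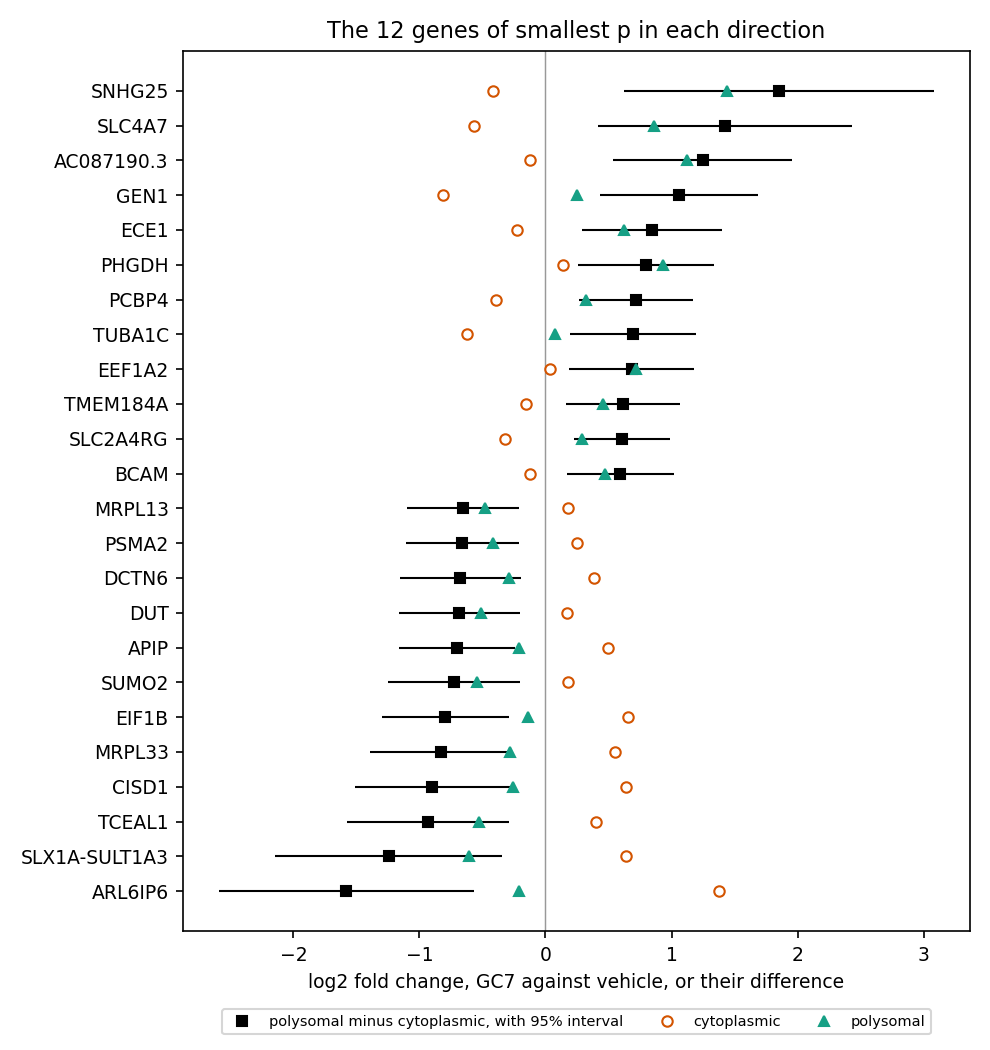
The 12 genes of smallest unadjusted p in each direction (y axis) with their cytoplasmic (open circles) and polysomal (triangles) log2 fold changes, GC7 against vehicle, and the difference (squares) with its 95% interval on the x axis. In the lower group every circle lies right of 0 and every triangle left of it; SNHG25 has the widest gap among the higher genes and ARL6IP6 among the lower ones.

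The higher and lower genes also differed in composition. The 135 higher genes had a median transcript GC content of 56.5% and a median coding length of 1959 bases, against 42.5% and 570 bases for the 122 lower genes and 48.8% and 1374 bases for all genes matched to an annotation. The middle of the coding sequence of 3 genes on each side illustrates the 2 extremes. Shown are 60 bases from GENCODE v44 canonical transcripts on GRCh38, with capitals marking G or C at the third position of a codon. They come from the 3 genes of smallest p on each side that lie in the highest (higher genes) or lowest (lower genes) quintile of third-position GC content. That choice fixes the contrast between them, and not every gene follows it: GEN1, on the higher side, has a transcript GC content of 39.7%, and the lowest quintile of third-position GC holds 21 higher and 41 lower genes.
SLC2A4RG: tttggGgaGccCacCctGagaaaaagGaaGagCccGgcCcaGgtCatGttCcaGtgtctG
ECE1: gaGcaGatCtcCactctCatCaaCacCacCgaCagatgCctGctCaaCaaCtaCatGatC
BCAM: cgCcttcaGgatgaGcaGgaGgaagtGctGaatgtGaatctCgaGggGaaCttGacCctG
APIP: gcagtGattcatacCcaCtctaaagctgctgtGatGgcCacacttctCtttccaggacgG
PSMA2: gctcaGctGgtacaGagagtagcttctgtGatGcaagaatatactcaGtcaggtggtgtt
CISD1: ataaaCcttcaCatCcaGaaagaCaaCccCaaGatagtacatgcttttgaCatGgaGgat

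In these stretches of 20 codons, G or C ended 16 codons in SLC2A4RG, 18 in ECE1 and 15 in BCAM. The same count was 8 in APIP, 6 in PSMA2 and 11 in CISD1. Over the whole coding sequence the third-position GC content was 83.7%, 78.4% and 79.9% in the first 3 genes and 38.4%, 35% and 39.8% in the last 3. The genes lie at chr20:63739776-63744050 (plus strand, SLC2A4RG), chr1:21217250-21290463 (minus, ECE1), chr19:44809103-44821421 (plus, BCAM), chr11:34882295-34916379 (minus, APIP), chr7:42916861-42932174 (minus, PSMA2) and chr10:58269162-58289586 (plus, CISD1), and all of the letters shown are coding exon sequence.

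Across the 10650 protein-coding genes with an annotated transcript, the difference went up with GC content. From the lowest to the highest quintile of transcript GC (median 38.4% to 62.2%), the median difference was -0.08, -0.08, -0.04, 0.07 and 0.19. Of genes at an unadjusted p under 0.05, the lowest quintile held 15 higher and 43 lower ones, and the highest quintile 55 higher and 2 lower. Spearman's rho between GC content and the difference was 0.352 across genes, which share libraries and are not independent.

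That gradient was seen in the cytoplasmic fold changes and hardly in the polysomal ones. The cytoplasmic fold change had a rho of -0.307 with GC content, running from a median of 0.06 in the lowest quintile to -0.24 in the highest, while the polysomal fold change had a rho of -0.0321. In the 6 whole-cell libraries, which do not enter the difference, the rho was 0.306 with the sign turned, and it would be -0.306 with the sign as deposited. The rho for the difference was 0.311 to 0.443 within quintiles of coding length and 0.259 to 0.391 within quintiles of cytoplasmic count. What set this gradient was not tested.

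Coding length showed another pattern, seen in the polysomal fold changes. In the shortest quintile (75 to 732 bases) the median polysomal fold change was -0.16 and the median difference -0.08, while in the 3 longest quintiles the median differences were 0.04 to 0.08. That shortest quintile held 77 lower and 4 higher genes at an unadjusted p under 0.05. Spearman's rho with coding length was 0.186 for the polysomal fold change, 0.00959 for the cytoplasmic one and 0.174 for the difference.

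Genes also differed by how they were spread over the fractions. The ratio of polysomal to cytoplasmic mean count, on a log2 scale, had a rho of -0.526 with the difference. In the quintile of genes with the lowest ratio the median difference was 0.23 with 77 higher and 2 lower genes at an unadjusted p under 0.05, and in the quintile with the highest ratio it was -0.21 with 3 and 56. Both measures come from the same libraries, so this relation is a description.

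**Figure D4:**
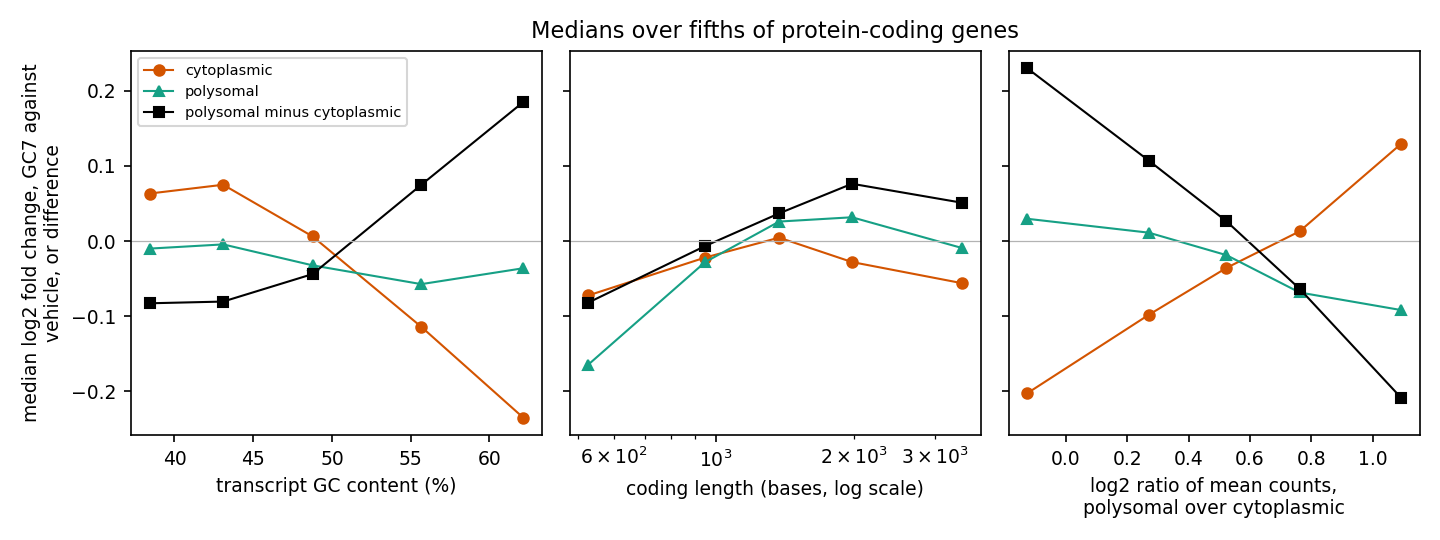
Median log2 fold change (GC7 against vehicle) in cytoplasm and polysomes and median difference (y axis) over quintiles of 10650 protein-coding genes by transcript GC content, coding length and the log2 ratio of polysomal to cytoplasmic mean count (x axes, each point at the quintile's median). The cytoplasmic line falls from 0.06 to -0.24 with GC content while the polysomal line stays near 0, and the polysomal line is lowest, at -0.16, for the shortest coding sequences.

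Runs of 3 prolines, the sequence at which ribosomes without eIF5A are best known to pause, were counted in the encoded proteins. Every position that starts 3 prolines counts as 1 run, so a longer stretch of prolines counts more than once. The 7870 genes with no such run had a median difference of 0.00, the 1381 with 1 run 0.05, the 932 with 2 to 4 runs 0.06 and the 467 with 5 or more 0.07. Spearman's rho was 0.0902, and within quintiles of GC content it was between -0.00301 and 0.0669. Tripeptides of a pair of prolines with a proline, glycine, aspartate or glutamate at either side, counted likewise, gave a rho of 0.138. The genes with the most runs were PRR12, with a difference of 0.20 ± 0.25, RAPH1 with 0.04 ± 0.32, YLPM1 with -0.19 ± 0.28 and WASL with -0.06 ± 0.30. The values of these 4 lay on both sides of 0, each within 1 SE of it.

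Formins and other actin regulators carry long proline runs by which they bind profilin. Of 26 such genes tested, 15 were above 0, the median difference was 0.04, and 1 had an unadjusted p under 0.05. That gene was FMNL1, a formin of the actin cortex, at -0.17 in cytoplasm and 0.36 in polysomes with a difference of 0.53 ± 0.21.

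Gene lists are described by counts and medians, beside 0.01 for the median of all genes and the 1.17% and 1.06% of genes that were higher or lower at an unadjusted p under 0.05. No member of any of the 35 lists passed adjustment. Translation initiation and elongation factors lay evenly around 0, with 22 of 43 above it, a median difference of 0.04 and 2 members, EIF1B and EIF1, lower at an unadjusted p under 0.05. That list does not hold the elongation factor EEF1A2, which was higher, by 0.68 ± 0.25, at an unadjusted p under 0.05. Of the cytosolic aminoacyl-tRNA synthetases, which charge tRNAs with amino acids, 18 of 21 were above 0, the median difference was 0.30, and the median polysomal change of 0.56 stood beside 0.29 in cytoplasm. None of them had an unadjusted p under 0.05, and FARSB came nearest with 0.49 ± 0.26. With each gene set against the median of its GC quintile, this list's median was 0.33.

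Cytosolic ribosomal proteins and other mRNAs with a 5′ terminal oligopyrimidine tract (TOP), whose translation depends on mTOR, lay above 0 more often than below. Of the ribosomal proteins, 60 of 80 were above 0 with a median difference of 0.11, and RPSA alone had an unadjusted p under 0.05, at 0.41 ± 0.20. Of the other TOP mRNAs, 22 of 26 were above 0, with a median difference of 0.24. RACK1, a scaffold on the small ribosomal subunit, stood at -0.16 in cytoplasm and 0.46 in polysomes, a difference of 0.62 ± 0.30. The elongation factor EEF2 stood at -0.23 and 0.57, a difference of 0.80 ± 0.54. Among all coding genes, the 616 whose annotated transcript begins with C and then 4 pyrimidines had a median difference of 0.04, against 0.01 for the other 10034.

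mRNAs of collagens and the enzymes that fold and modify them had the highest median of any list with over 10 members. Of 19 tested, 16 were above 0, the median difference was 0.40, and 4 were higher at an unadjusted p under 0.05. Beside SERPINH1 these were COL6A1 and COL6A2, chains of collagen VI, with 0.86 ± 0.38 and 0.60 ± 0.26, and BMP1, which trims procollagen, with 0.51 ± 0.22. Their transcripts had a median GC content of 58.8%, and with each gene set against the median of its GC quintile the list's median was 0.23. So centred, the collagen list no longer ranked first: cytosolic aminoacyl-tRNA synthetases stood at 0.33, other TOP mRNAs at 0.31 and chaperones of the endoplasmic reticulum at 0.24. Chaperones of the endoplasmic reticulum had 22 of 27 members above 0 and a median of 0.17, with none at an unadjusted p under 0.05. MANF, an ER stress-induced secreted factor, went against the list, at -0.03 in cytoplasm and -0.72 in polysomes with a difference of -0.70 ± 0.40.

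Keratins were part of a list of 8 epithelial genes, of which 7 were above 0. KRT8 stood at -0.64 in cytoplasm and 0.15 in polysomes, a difference of 0.78 ± 0.33 (unadjusted p 0.0181). KRT18, its partner in the same filaments, stood at -0.54 and 0.27, a difference of 0.81 ± 0.42. Both keratins have many processed copies in the genome that could take part of their reads.

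The lists of inducible signalling genes stood on the other side. Of 21 NF-kB targets and cytokines, 16 were below 0, with a median change of 0.60 in cytoplasm, 0.24 in polysomes and a median difference of -0.23. IL6 rose in both fractions by the authors' deposited table, by an unshrunken 1.19 in cytoplasm and 0.62 in polysomes, and its difference was -0.57 ± 0.22 (unadjusted p 0.0101). The neutrophil chemokine CXCL1 stood at 0.93 and 0.38, a difference of -0.56 ± 0.28, and CXCL8 at 0.75 and 0.23, a difference of -0.52 ± 0.30. NFKB2, a subunit of NF-kB, stood apart with 0.82 ± 0.61.

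Immediate early genes, transcribed within minutes of a stimulus, had 19 of 27 members below 0, with a median change of 0.38 in cytoplasm and 0.04 in polysomes. MYC stood at 0.98 in cytoplasm and 0.04 in polysomes, a difference of -0.94 ± 0.42 (unadjusted p 0.0243). FOS stood at 0.40 and -0.30 and DUSP1, a phosphatase that turns off MAP kinases, at 0.84 and -0.06, differences of -0.70 ± 0.38 and -0.91 ± 0.55. Neither of these passed even an unadjusted p of 0.05.

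Targets of ATF4, which drives amino acid supply genes under stress, stood above 0 in both fractions. Their median change was 0.56 in cytoplasm and 0.83 in polysomes, and the median difference was 0.07 with 27 of 45 members above 0. PHGDH, ASNS and STC2 were higher at an unadjusted p under 0.05. ASNS, which makes asparagine, stood at 1.01 and 1.66, a difference of 0.65 ± 0.28, and STC2, a secreted glycoprotein, at 1.30 and 1.80, a difference of 0.50 ± 0.25.

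mRNAs with upstream open reading frames that are known for being translated under stress had 9 of 15 members above 0, a median difference of 0.03 and none at an unadjusted p under 0.05. PPP1R15A (GADD34), which helps reverse eIF2 phosphorylation, was called in both fractions by the authors' deposited table, at an unshrunken 0.72 in cytoplasm and 1.06 in polysomes. Its difference was 0.34 ± 0.25. Others went the opposite way within the fractions: ATF5 was called in both and stood at -0.73 and -0.86, and ATF4 was called in polysomes alone and stood at -0.45 and -0.44. Their differences were -0.13 ± 0.27 and 0.01 ± 0.30.

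Nuclear genes for mitochondrial proteins were described in separate lists. Of 82 mitochondrial ribosomal proteins, 44 were below 0, the median difference was -0.02, and 5 were lower at an unadjusted p under 0.05. These were MRPL13, MRPL33, MRPS14, MRPL50 and MRPL36. Of 37 nuclear complex I subunits, 23 were above 0, yet the 4 at an unadjusted p under 0.05 were all lower. They were NDUFB3 with -0.57 ± 0.26, NDUFAB1 with -0.43 ± 0.21, NDUFB5 with -0.41 ± 0.21 and NDUFB6 with -0.42 ± 0.21. The list's median of 0.17 became 0.01 with each gene set against its GC quintile and -0.05 with the fold changes as deposited. The subunits of complexes II to V had a median of 0.05, or -0.14 with fold changes as deposited, with SDHC at -0.61 ± 0.29 and ATP5MC3 at -0.80 ± 0.39. Of 22 enzymes of the TCA cycle, 15 were above 0 with a median of 0.07, and FH, fumarase, was higher at 0.52 ± 0.25 (unadjusted p 0.0375).

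Lists tied to growth stood below 0 in both fractions. The 45 DNA replication genes had median changes of -0.45 in cytoplasm and -0.38 in polysomes, with a median difference of 0.06. The 38 mitosis genes stood at -0.38 in both, with a median difference of -0.01, and the 24 cholesterol synthesis genes at -0.42 and -0.32, with 0.10. LSS, lanosterol synthase, was the cholesterol gene with the smallest p, at -1.14 and -0.57 with a difference of 0.56 ± 0.28. The 37 proteasome subunits, with a median of 0.17, held PSMC3 and PSMD12 on the higher side and PSMA2 on the lower at an unadjusted p under 0.05.

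**Figure D5:**
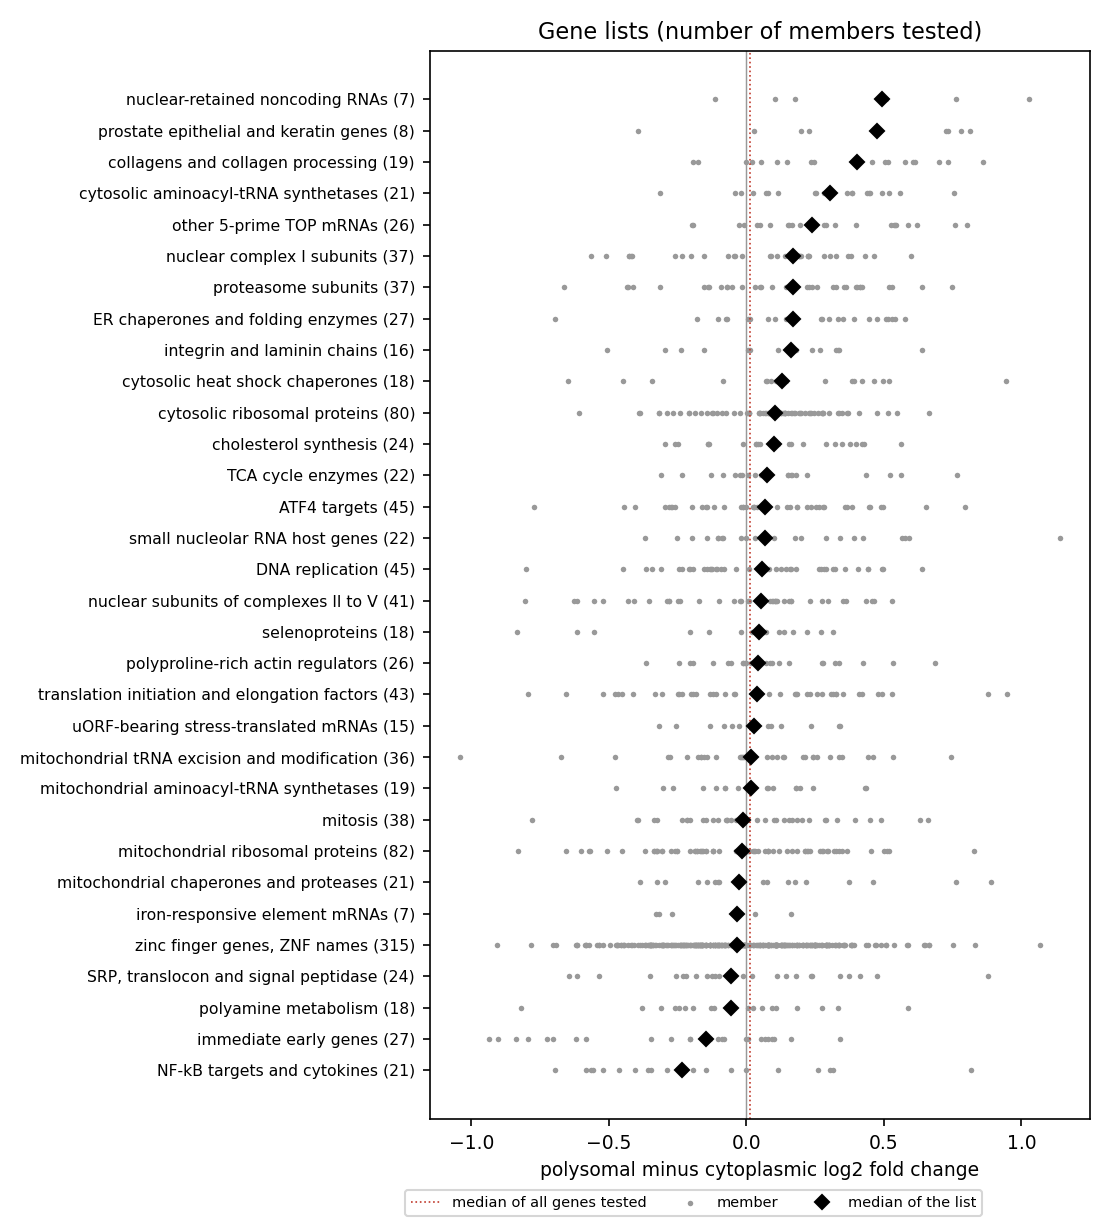
Polysomal minus cytoplasmic log2 fold change (x axis) of each member (grey points) and the median (diamond) of the gene lists with at least 7 members tested (y axis, number in brackets); the dotted line is the median of all genes, 0.01. The collagen list (0.40) lies high and the NF-kB list (-0.23) lowest, and the members of most lists spread more widely than the medians do.

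Some of the RNAs counted in both fractions are known to stay mainly in the nucleus. Of 7 tested, 6 were above 0, with a median difference of 0.49 at a median SE of 0.60. The median was 0.06 with fold changes as deposited and 0.18 with no count minimum. NEAT1, the scaffold of paraspeckles, averaged 1398 counts in cytoplasm and stood at -0.29 there and 0.74 in polysomes, a difference of 1.03 ± 0.65 (unadjusted p 0.115), or 0.18 with fold changes as deposited. MALAT1 stood at -0.96 and -0.20, a difference of 0.76 ± 0.60. Their part in the differences of other genes was not tested.

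Nuclear copies of mitochondrial genes met the rule by name, and their reads may come from the mitochondrial genes themselves. MTATP6P1 stood at -2.87 in cytoplasm and -4.13 in polysomes, a difference of -1.26 ± 0.62 (unadjusted p 0.043), and is among the 122 lower genes. MTCO1P12 differed by -0.88 ± 0.80 and MTND2P28 by -0.06 ± 0.48.

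Whole-cell RNA, measured in 6 further libraries, was compared for the same genes, with its sign turned. The 135 higher genes had medians of -0.36 in cytoplasm, 0.28 in polysomes and 0.03 in whole cells. The 122 lower genes had medians of 0.40 in cytoplasm, -0.24 in polysomes and -0.20 in whole cells. The sign of both whole-cell medians depends on that turn, so they are not read as siding with either fraction. Across 11154 genes the whole-cell fold change had a rho of 0.374 with the polysomal fold change, 0.254 with the cytoplasmic one and 0.0792 with the difference. The turn was chosen by the sign of the rho with polysomes, so that sign is not a result. The signs of the other rhos depend on the turn.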

How the data were processed

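RNA was sequenced in 12 fraction libraries and 6 whole-cell libraries of DU145 cells. STAR 2.7.8a, Salmon 1.4.0 and GRCh38 are named in the submitters' processing notes. Per the file headers, the deposited fraction table gives, for each fraction, a mean signal (normalized count), a log2 fold change, its SE and a p-value with its adjusted value. The deposited table of whole cells holds a fold change, read as log2, and a p-value. Sequencing depth per library is not given in the files used here, nor is the numerator of either table.

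The deposited fold changes were shrunken: divided by their SEs they did not return the deposited p-values. They were unshrunken by assuming a Cauchy prior on natural logs whose width (0.197 in cytoplasm, 0.203 in polysomes) was matched to those p-values. In cytoplasm, 99.7% of genes had a recovered ratio of fold change to SE within 0.1 of the normal score implied by their p-value. In polysomes this share was 99.8%. The prior width had been matched to those same p-values, so this closeness is not an independent check. The difference was divided by the root of the summed squared SEs, tested against a normal distribution (two-sided) and adjusted over all genes (threshold 0.05). The step was also run on simulated data made with the same prior and with independent errors, so that run could not check either assumption. Python 3.11.15, numpy 2.4.6, pandas 2.3.3 and scipy 1.17.1 were used. GENCODE v44 features matched 96.6% of genes by symbol. The main test treated the errors of the 2 fractions as independent.

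Genes, lists and the direction of each table were chosen with earlier results of these data known. The rule for naming genes took the most changed called genes, of which there were none; the hypusination genes; the smallest p of each list; and the genes with the most proline runs. The 20 genes of smallest p in each direction, and further list members, were added after their values were seen.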

Additional observations from a re-analysis of the deposited data

How the results depend on the processing

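No paired analysis was possible because the files used here hold comparisons and no values per library; for the same reason no replicate could be left out in turn, and how far 1 library decides a value is unknown. The count of 0 genes past adjustment was also obtained with fold changes as deposited, SEs taken from the p-values, no count minimum, a minimum of 500, centring on the median, division by the robust SD, poorly recovered genes kept and, added after the data were seen, errors correlated at 0.3 and centring within GC quintiles. It was not obtained where the errors of both fractions were taken as correlated at 0.5, as they might be if a cytoplasmic and a polysomal library came from 1 lysate. Then 7 genes passed: AC087190.3, GEN1, SLC2A4RG, PCBP4 and ECE1 higher, EIF1B and APIP lower, with adjusted p-values of 0.032 to 0.0376. The labels do not say whether lysates were shared. The 257 genes at an unadjusted p under 0.05 became 1055 with a correlation of 0.5, 583 with 0.3 and 402 after division by the robust SD, each of which makes the SE smaller by construction; the other settings gave 174 to 335. The difference of WASL changed sign to 0.03 (0.0250) when centred within GC quintiles, the only change of sign among the 69 of 74 genes named by rule or by smallest p that could be centred so. With fold changes as deposited, 23 of those 74 differences were over 1.5 times smaller, among them NEAT1 (0.18), DHPS (0.14), HSPA4 (0.29), KRT8 (0.51), MYC (-0.60), ARL6IP6 (-1.01) and ODC1 (-0.03), and the rank correlation of the difference was 0.251 with GC content and -0.397 with the ratio of mean counts. Fold changes as deposited gave list medians of 0.20 for collagens, 0.21 for cytosolic aminoacyl-tRNA synthetases, 0.18 for other TOP mRNAs, 0.04 for cytosolic ribosomal proteins and -0.14 for NF-kB targets, all of the same sign as unshrunken. Other list medians changed sign: nuclear complex I subunits went from 0.17 to -0.05 and complexes II to V from 0.05 to -0.14. Iron-responsive element mRNAs went from -0.03 to 0.07, and mitochondrial chaperones and proteases from -0.03 to 0.04.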
